A study of Mus musculus with 2 samples.

Results

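Promoter to promoter contacts of less than 1 Mb were examined in RNA polymerase II (RNA Pol II) ChIA-PET data from mouse embryonic stem cells (ESCs) with and without Ronin. A contact was a pair of RNA Pol II peaks on the same chromosome that was joined by at least 1 paired-end tag (PET), a read pair whose ends came from 2 fragments ligated to each other. Pairs were kept when both peaks, here called anchors, lay within 2.5 kb of a transcription start site (TSS) of a GENCODE vM1 protein-coding gene on mm9 and when the anchor midpoints were less than 1 Mb apart. This gave 2026 of 12330 intrachromosomal pairs in control ESCs, with 3657 of 24663 PETs, and 1033 of 5037 pairs in Ronin knockout ESCs, with 2026 of 12140 PETs. They were 16.4% and 20.5% of the intrachromosomal pairs of the control and knockout library.

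The ESCs carried CreERT2 and were Ronin flox/flox in both groups, came from blastocysts and grew on gelatine with LIF. Controls received ethanol and the other cells tamoxifen for 4 days, which activates the Cre recombinase and deletes Ronin, also called Thap11. Among these libraries there was no control for tamoxifen itself, a single inducible genotype was used, and contacts alone cannot check the loss of the Ronin protein. Apart from the contacts, the study followed Ronin protein by Western blot, with Ronin flox/flox cells that lacked CreERT2 beside the inducible ones. The authors merged 2 experiments per condition into 1 library, immunoprecipitated with the anti-RNA Pol II clone 8WG16, so that no spread between replicates could be computed. Intervals are 95% intervals and include counting error alone. For the same reason, tests of PETs set 1 library against the other and say nothing of how the conditions vary. The libraries differed in size, with 156097 PETs between peaks in control and 65276 in the knockout when contacts between chromosomes were included.

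Active promoters are bound by RNA Pol II, which often pauses just downstream of the TSS, and promoters that lie near each other along a chromosome can meet in space. In ESCs, Ronin, a THAP-domain zinc finger protein, binds a conserved motif close to the TSSs of many housekeeping genes, such as those for ribosomal proteins, mitochondrial proteins and splicing factors. A ChIA-PET contact between 2 promoters records that their DNA was near each other in chromatin captured with RNA Pol II. It does not say whether either gene was transcribed.

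The Ronin-binding motif was searched on both strands as ACTNCANNTCCCAG, where N is any base, which is the consensus of the motif sequences listed by the study. It does not match all of them, as the most frequent one, 345 of 1997, differs from it at a fixed base. A copy lay within 500 bp of a TSS in 613 of 22380 protein-coding genes, or 2.74%. Among genes at the anchors of the promoter contacts the share was 5.0% in control (204 of 4084) and 5.37% in the knockout (141 of 2626). The sequences shown are motif copies at promoters whose contacts are described further on. All are from mm9 and written 5′ to 3′ along the strand given, with the motif in capitals. A match is a description of the DNA and does not show binding.
Cnpy2, minus strand, chr10:127759260-127759333, upstream of the TSS: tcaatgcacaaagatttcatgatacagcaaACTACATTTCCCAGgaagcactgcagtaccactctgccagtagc
Pa2g4, plus strand, chr10:128003092-128003165, upstream of the TSS: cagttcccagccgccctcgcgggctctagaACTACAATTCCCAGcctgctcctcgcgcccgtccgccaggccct
Ywhag first copy, minus strand, chr5:136410777-136410850, upstream of the TSS: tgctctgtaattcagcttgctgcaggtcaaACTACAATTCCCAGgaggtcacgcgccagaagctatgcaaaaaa
Ywhag second copy, plus strand, chr5:136410846-136410919, upstream of the TSS: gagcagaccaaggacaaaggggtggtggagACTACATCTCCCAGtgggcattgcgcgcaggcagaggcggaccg
Mmachc, minus strand, chr4:116380940-116380969, in an exon: gctatgagACTCCATTTCCCAGcaagctca
Nutf2, the neighbor of Thap11, minus strand, chr8:108384406-108384479, upstream of the TSS: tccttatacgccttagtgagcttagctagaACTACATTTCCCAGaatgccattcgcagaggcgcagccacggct
Gsk3a, minus strand, chr7:26023237-26023310, upstream of the TSS: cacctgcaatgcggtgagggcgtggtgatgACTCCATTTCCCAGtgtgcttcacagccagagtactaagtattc

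Another kind of sequence bears on how the counts can be read. Some contacts joined promoters of gene copies whose DNA was partly the same, such as zinc finger genes that stand in rows. The anchors of AA987161 and A530054K11Rik on chromosome 13 held the same 144 bp between genes, once 804 bp from the TSS of AA987161 at chr13:67711376-67711519 and once 680 bp from the TSS of A530054K11Rik at chr13:67739298-67739441, both on the plus strand of mm9.
AA987161 and A530054K11Rik, shared stretch: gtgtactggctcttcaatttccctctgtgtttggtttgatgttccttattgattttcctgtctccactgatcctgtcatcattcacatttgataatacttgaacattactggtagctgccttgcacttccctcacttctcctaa
Reads from such a stretch can map to either copy, although the authors kept uniquely mapped reads only. Pairs whose anchors shared at least 2% of the 32-base words of the shorter anchor are called pairs of similar sequence here, and all others pairs of distinct sequence. Distinct pairs can still share a stretch, as 30 of those in control, with 45 PETs, held an identical one of at least 100 bp. This division was chosen after the data were seen, and the main values are given with and without it. The part of mapping in the counts of similar pairs was not tested.

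In Ronin the knockout, promoters within 1 Mb were joined by fewer PETs and in fewer pairs than in control cells, as were all other classes of intrachromosomal contacts. The 3657 control PETs compared with 2026 in the knockout, which is 55.4% of control (52.4 to 58.5). The 2026 control pairs compared with 1033, or 51.0% (47.3 to 55.0). Pairs of distinct sequence made up most of the contacts and fell to 50.5% of control in PETs (46.9 to 54.3), from 2197 to 1109. The 95 control pairs of similar sequence carried 1460 PETs, and the 74 in the knockout carried 917, or 62.8% (57.8 to 68.3).

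These percentages are of raw PETs, and their direction depended on what the libraries were scaled to. Divided by the other intrachromosomal PETs of each library, knockout promoter contacts were 115% of control, and by the interchromosomal PETs 137%. With the total of long-range PETs sequenced in each library as the scale, they were 69.4%. No spike-in set an absolute scale, so the values that follow are raw, and comparisons between classes of contacts rest on odds ratios. A common scale factor for all PETs of a library cancels in odds ratios of PETs. It need not cancel in those of pairs or of contacts found again, and the part of library size in these was not tested.

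Over pairs of any number of PETs, promoter contacts under 1 Mb retained more of their PETs than other contacts did. Promoter to promoter contacts at 1 Mb or more fell from 5098 to 2271 PETs, 44.5% of control (42.4 to 46.8). Contacts under 1 Mb between a promoter and a peak away from any TSS fell from 3824 to 1912, or 50% (47.3 to 52.8), and the remaining intrachromosomal contacts from 12084 to 5931, or 49.1%. The knockout to control odds ratio of PETs under 1 Mb between promoters was 1.15 against all other intrachromosomal PETs (1.08 to 1.22, Fisher's exact test, p adjusted over 4 comparisons 7.7e-06). It was 1.24 against distant promoter contacts (adjusted p = 2.6e-08, Fisher's exact test) and 1.11 against promoter to non-promoter contacts (1.03 to 1.20, adjusted p = 0.0094, Fisher's exact test). The test treats PETs as independent, but those of 1 pair are not, so its p-values for PETs can be too small. The pair of Gm10722 with Gm10717 alone gave 0 control and 108 knockout PETs. Without the 2 pairs with the most PETs the ratio against all others was 1.19 (1.12 to 1.27). Counted by pairs, the ratio against all others was 1.31 (1.21 to 1.43, adjusted p = 5e-10, Fisher's exact test). Among pairs with at least 2 PETs, the ratio of PETs was 1.03 (0.954 to 1.12, p = 0.409, Fisher's exact test), so no difference was detectable there.

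The higher ratio was also found among pairs of distinct sequence. With similar pairs left out of both sides, all other intrachromosomal contacts fell from 10569 to 3932 PETs, 37.2% of control (35.9 to 38.6), and the odds ratio was 1.36 (1.25 to 1.47, Fisher's exact test, p = 2.8e-13). It was 1.29 (1.19 to 1.4, Fisher's exact test, p = 1.5e-09) without the contacts of Cope with Mast3 as well, and 1.32 when each pair was counted once (Fisher's exact test, p = 4.7e-10). With similar pairs left out of the promoter contacts alone it was 1.05 (0.972 to 1.13, p = 0.226, Fisher's exact test), so the choice of which side to filter decided the call. Against promoter to non-promoter contacts under 1 Mb, with similar pairs left out of both classes, the ratio was 1.26 (1.13 to 1.4, p = 2.2e-05, Fisher's exact test). In that class, contacts of distinct sequence fell from 2144 to 858 PETs, 40.0% of control (36.9 to 43.3). Without Cope and Mast3 the ratio was 1.20 (1.08 to 1.34, Fisher's exact test, p = 0.00096).

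**Figure D1:**
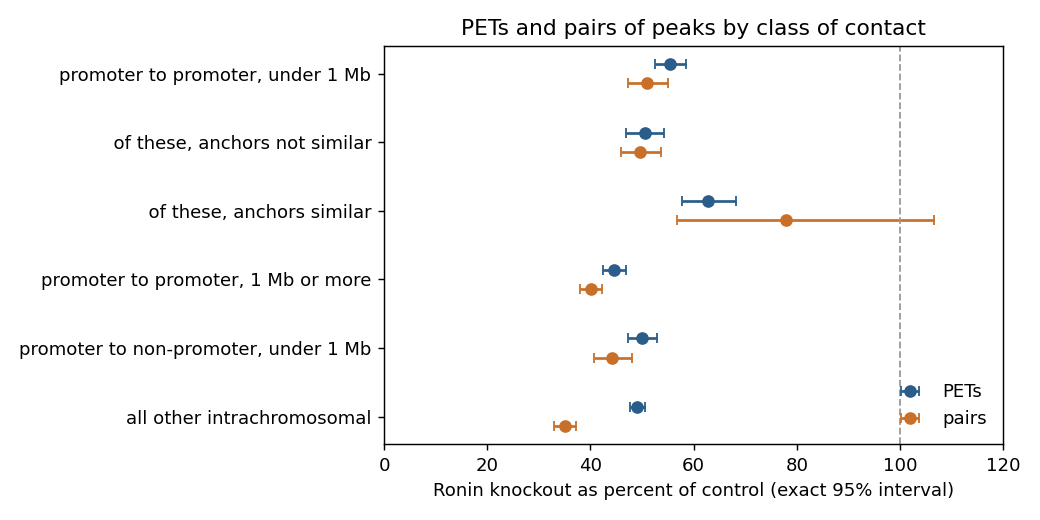
Knockout PETs (blue) and pairs of peaks (orange) as a percentage of control (x axis, with exact 95% counting intervals as bars) for promoter contacts under 1 Mb, for those of distinct sequence (anchors not similar) and similar sequence, and for the other classes of intrachromosomal contacts. In PETs, promoter contacts under 1 Mb lie at 55.4%, those of distinct sequence at 50.5% and those of similar sequence at 62.8%, and every class lies below 100%.

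Most promoter contacts were seen once. Pairs with 1 PET made up 88.4% of the control pairs and 89.7% of the knockout pairs, and their number fell from 1791 to 927, or 51.8% of control (47.8 to 56.1). Pairs of distinct sequence with exactly 2 PETs fell further, from 144 to 46, or 31.9% (22.4 to 44.8). Those with 3 to 9 PETs numbered 30 and 10. Pairs of distinct sequence with at least 2 PETs fell from 177 to 60, or 33.9% (24.9 to 45.7). The numbers of promoter pairs with 10 or more PETs were 22 and 23, of which 19 in each library were of similar sequence. These cut-offs were applied to each library on its own, and the part of library size in the falls was not tested. Pairs of distinct sequence were also chosen by their PETs in both libraries together. With at least 2 PETs they then kept 61.4% of control PETs (53.9 to 69.8, 624 to 383). With at least 3 they kept 80.6% (66.6 to 97.3, 252 to 203), Cope and Mast3 included.

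The contacts of both libraries differed little in their geometry. The median distance between anchors was 89.4 kb in control and 89.2 kb in the knockout, and the median anchor was 14.9 kb and 15.4 kb wide. In 41.9% of control pairs and 43.2% of knockout pairs no other protein-coding TSS lay between the anchors, so that these joined neighboring promoters. Orientation was assigned to the 631 and 318 pairs, neighboring or not, that had a single gene at each anchor and different genes at both. Of these, 51.8% and 54.1% had genes on the same strand, and 27.1% and 27.4% had genes that pointed away from each other. In 21.1% and 18.6% the genes pointed towards each other. The intervals of the libraries overlapped for each orientation.

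By distance, the lowest value was found for the closest promoters. Under 10 kb there were 81 PETs in control and 24 in the knockout, 29.6% of control (18 to 47.2), all from pairs of distinct sequence. From 10 to 20 kb the value was 65.7%, from 20 to 50 kb 65.8%, from 50 to 100 kb 53.6%, from 100 to 250 kb 54.0%, from 250 to 500 kb 45.1% and from 500 to 1000 kb 52.7%. With distinct sequence only, 20 to 50 kb gave 45.0% (505 to 227 PETs) and 250 to 500 kb 64.6% (297 to 192), the latter bin being that of Cope and Mast3. The intervals of all bins from 20 kb to 250 kb overlapped in pairs of distinct sequence.

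**Figure D2:**
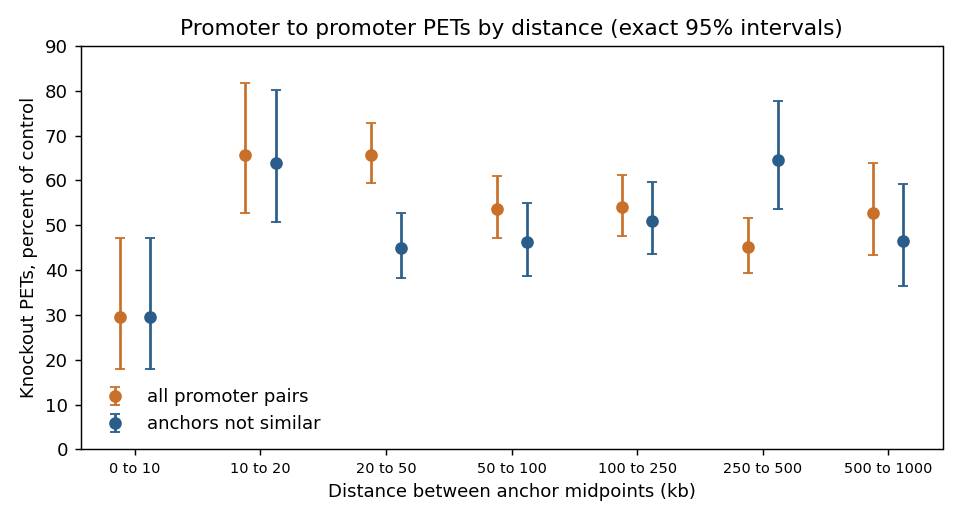
Knockout PETs as a percentage of control PETs (y axis, with exact 95% counting intervals as bars) by distance between the anchor midpoints in kb (x axis), for all promoter contacts under 1 Mb (orange) and for those of distinct sequence (blue, anchors not similar). Contacts under 10 kb lie lowest at 29.6%, and from 20 to 50 kb all contacts lie at 65.8% but those of distinct sequence at 45.0%.

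To follow each contact from 1 library to the other, anchors that overlapped by at least 1 bp were merged, which gave 2821 merged promoter pairs. Of these, 1786 had PETs only in control, 809 only in the knockout and 226, or 8.01%, in both. PETs were fewer in the knockout at 1864 pairs (66.1%, against 71.5% of all intrachromosomal pairs), more at 834 and equal at 123. The median was 1 PET in control and 0 in the knockout, both for promoter pairs and for all intrachromosomal pairs. Most pairs seen in only 1 library had 1 PET there, and the part of library size in their absence from the other was not tested. Overlap with peaks of the other library was counted as well, where a peak was any anchor of any of its pairs. The strength of the peaks was not compared. Both anchors overlapped a peak of the knockout library at 1541 of the 1786 pairs seen only in control, and a peak of the control library at 765 of the 809 seen only in the knockout.

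A control contact was rarely found again in the knockout library, and the share rose with its number of PETs. It was found again when both of its anchors overlapped both anchors of 1 intrachromosomal knockout pair. This held for 221 of 2026 control promoter contacts, 10.9% (9.58 to 12.3), and for 9.06% of those of distinct sequence. The share was 7.54% for contacts with 1 PET, 20.9% with 2 PETs and 68.8% with 3 or more (53 of 77). In pairs of distinct sequence with 3 or more PETs, 17 of 33 were found again.

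Among control contacts, those between promoters under 1 Mb were found again more often than the other classes. Control promoter contacts at 1 Mb or more were found again in 1.91% of cases and promoter to non-promoter contacts under 1 Mb in 8.54%. The odds ratio against all other intrachromosomal contacts was 3.26 (2.74 to 3.88, Fisher's exact test, p adjusted over 8 comparisons 8.7e-36). Against promoter to non-promoter contacts it was 1.31 (1.06 to 1.63, adjusted p = 0.0192, Fisher's exact test), and 1.39 with distinct sequence only (adjusted p = 0.0134, Fisher's exact test). In the other direction 220 of 1033 knockout promoter contacts were found in control, 21.3%, against 20.1% of promoter to non-promoter contacts, with an odds ratio of 1.08 (0.858 to 1.35, adjusted p = 0.562, Fisher's exact test). The classes differed in PETs per pair, and neither this nor the width of the anchors was adjusted for. Within promoter contacts the share fell with distance, from 14.2% under 50 kb to 11.7% from 50 to 250 kb and 5.01% from 250 kb.

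**Figure D3:**
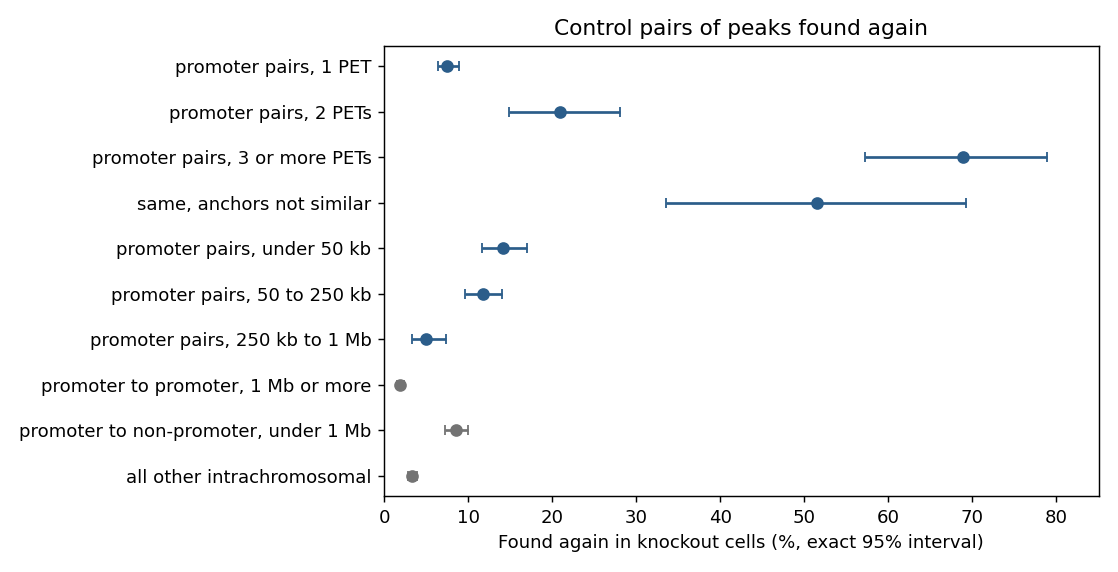
Share of control contacts that were found again in the knockout library, in percent (x axis, with exact binomial 95% intervals as bars), for promoter contacts under 1 Mb by number of PETs and by distance (blue) and for the other classes of contacts (grey). Promoter contacts with 1 PET lie at 7.54% and those with 3 or more at 68.8%, and distant promoter contacts at 1.91%.

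Single promoter pairs were tested with an exact binomial test against the knockout share of all intrachromosomal PETs, 33.0%, so that a pair called higher had kept or gained more PETs than the library as a whole. Of all merged intrachromosomal pairs, 268 had at least 5 PETs and were tested, of which 11.9% were called lower and 16.0% higher, 28.0% in either direction, at an adjusted p under 0.05. Of the 56 promoter pairs tested, 2 were lower and 8 higher, a share of 17.9% against 30.7% of the 212 other pairs. The share called among promoter pairs was thus below the background. Similar sequence was frequent at this depth, in 40 of the 56 pairs with at least 5 PETs and 29 of the 34 with at least 10.

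The strongest of the lower pairs was of zinc finger genes. Zfp942 and Zfp943 were joined to Zfp758 and Zfp944 on chromosome 17, at 400.0 kb, by 212 PETs in control, the highest number of any promoter pair, and by 23 in the knockout (10.8% of control, exact binomial test with Benjamini-Hochberg adjustment, p = 5.8e-15). Its anchors shared 11.1% of their 32-base words.

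Of the 8 higher pairs, 5 were of similar sequence. AA987161 and A530054K11Rik, whose shared stretch is printed above, had 132 and 102 PETs, 77.3% of control (59.1 to 101, exact binomial test, adjusted p = 0.0046). Gm15446 and Zfp932 on chromosome 5 had 108 and 85 (exact binomial test, adjusted p = 0.0083), with 53.1% of 32-base words in common. Zfp874a and Zfp874b on chromosome 13 had 33 and 40 (exact binomial test, adjusted p = 0.00097). These pairs were called higher because their PETs fell less than those of the library, and the numbers rose only at Zfp874a and Zfp874b.

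Other pairs called higher had no PET in control, where a count of 0 allows up to 3 PETs. The anchors at Gm10722 and Gm11168 and at Gm10717 and Gm10718, at the start of chromosome 9, were joined by 108 PETs in the knockout (exact binomial test, adjusted p = 1.3e-50), the highest number there, and 1 of these anchors overlapped no control peak. They shared 45.7% of 32-base words. On the mitochondrial genome, which lies outside the nucleus, anchors that span genes of the respiratory chain, of which 1 overlapped no control peak, were joined by 10 PETs (exact binomial test, adjusted p = 0.00013). Inside 1 merged anchor at 2610524H06Rik and Gm20499 on chromosome 5, 6 PETs were found in the knockout (exact binomial test, adjusted p = 0.0070).

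The 2 remaining higher pairs joined Cope to Mast3 on chromosome 8, and both were of distinct sequence. Cope encodes a coatomer subunit of Golgi transport vesicles, its neighbor Ddx49 an RNA helicase and Mast3 a serine/threonine kinase. Cope and Ddx49 were joined to the anchor at Mast3, at 487 kb, by 19 PETs in control and 34 in the knockout (exact binomial test, adjusted p = 4.9e-05). An anchor next to it at Mast3, Pik3r2, Rab3a and Ifi30, at 465 kb, had 0 and 28 PETs (exact binomial test, adjusted p = 7.9e-13). Together these were 19 and 62 PETs, 326% of control (193 to 578), while all other promoter contacts of distinct sequence came to 48.1% (44.6 to 51.8). Both libraries had a peak at each anchor of these 2 pairs. How far the split of PETs between both pairs depends on where the peaks end was not tested.

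**Figure D4:**
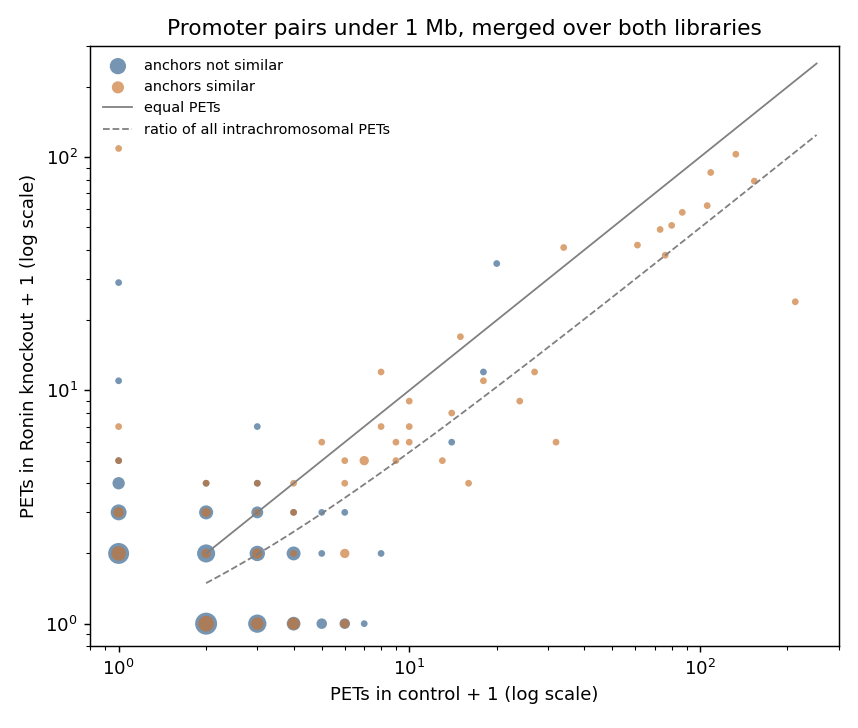
PETs plus 1 of each merged promoter pair in control (x axis) and knockout cells (y axis) on logarithmic axes, with pairs of distinct sequence in blue and of similar sequence in orange, and larger dots where more pairs have the same values. The solid line marks equal PETs and the dashed line the ratio of all intrachromosomal PETs. The pair of Zfp942 with Zfp758, at 212 and 23 PETs, lies far below the lines, and the pair of Gm10722 with Gm10717, at 0 and 108, at the upper left.

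Among the pairs with the most PETs that were not called, all were of similar sequence as well. Gm13247 and Gm13051 had 153 and 78 PETs (51.0% of control), Gm14401 and Gm14412 79 and 50, and 5430403G16Rik and 4930522L14Rik 75 and 37. Rsph3b and Rsph3a, copies of a gene for a radial spoke protein of cilia that lie 985 kb apart on chromosome 17, had 86 and 57 PETs. Atat1, Mrps18b and Ppp1r10, which encode a tubulin acetyltransferase, a mitochondrial ribosomal protein and a regulator of protein phosphatase 1, were joined to Abcf1 at 29.8 kb by 105 and 61 PETs. Their anchors shared a stretch of 250 bp. Of these 5 pairs, each had fewer PETs in the knockout, between 49.3% and 66.3% of control.

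Promoter pairs of distinct sequence had far fewer PETs each. Apart from Cope and Mast3, the strongest joined Gpn3, which acts in the nuclear import of RNA Pol II, to Arpc3, a subunit of the actin-nucleating Arp2/3 complex, at 9.92 kb on chromosome 5. It had 17 PETs in control and 11 in the knockout, or 64.7% (27.4 to 146). Promoters of Sgms1, a sphingomyelin synthase gene, were joined by 13 and 5 PETs. The promoters of Hspb1, a small heat shock protein, and Ywhag, a 14-3-3 protein, were joined to Srcrb4d by 7 and 1. Apart from the pairs already called higher, no pair of distinct sequence passed the test. The histone genes around Hist1h1d and Hist1h2ad, with 2 and 6 PETs, came closest (exact binomial test, adjusted p = 0.064).

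The PETs of contacts with and without each of 6 properties were compared between the libraries. The choice of contacts had used none of them except distance, which it limited to 1 Mb. With pairs of distinct sequence, contacts that had a bidirectional promoter, meaning TSSs of opposite strands within 1000 bp, at 1 anchor or both kept 58.8% of control PETs (682 to 401), and the others 46.7% (odds ratio 1.26, 1.08 to 1.47, Fisher's exact test, p adjusted over 6 properties 0.0195). Over all promoter contacts the ratio was reversed, at 0.819 (0.727 to 0.923, adjusted p = 0.0030, Fisher's exact test), and without similar pairs and Cope it was 1.09 (adjusted p = 0.754, Fisher's exact test). An identical stretch of at least 100 bp gave a ratio of 1.25 (1.11 to 1.41, adjusted p = 0.0011, Fisher's exact test) and a distance under 100 kb 1.19 (1.07 to 1.33, adjusted p = 0.0030, Fisher's exact test). In pairs of distinct sequence both turned, to 0.567 and 0.877 (adjusted p = 0.182 for each, Fisher's exact test), and without the 2 strongest pairs they were 1.14 and 1.05 (adjusted p = 0.132 and 0.513, Fisher's exact test). When each pair was counted once instead of each PET, none of the 6 passed the threshold, with adjusted p-values from 0.436 to 0.934 (Fisher's exact test).

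With the motif as defined above, no difference between contacts with and without it was detectable at this depth. Contacts with a motif within 500 bp of a TSS at 1 anchor or both fell from 274 to 145 PETs, 52.9% of control (43.0 to 65), and contacts without it from 3383 to 1881, 55.6% (52.5 to 58.8). The odds ratio was 0.952 (0.772 to 1.17, adjusted p = 0.717, Fisher's exact test). With the listed sequences themselves it was 0.987 (0.862 to 1.13). The study found Ronin at many more promoters than carry this motif, so contacts without it can be Ronin-bound too. The comparison is thus of the motif and cannot show an effect of Ronin binding. A looser consensus gave 1.25 and a search of the whole anchor 0.812, each past the threshold. In pairs of distinct sequence the looser consensus gave 0.878 (0.75 to 1.03, adjusted p = 0.165, Fisher's exact test), so that the direction depended on the definition of the motif and on the similar pairs. By number, 88.2% of control pairs had no motif, 11.1% had it at 1 anchor and 0.740% at both.

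Only 15 control pairs and 8 knockout pairs had a motif at both anchors, with 22 and 19 PETs. The anchor at Cs, the citrate synthase gene, and Cnpy2 was joined to that of Pa2g4, a proliferation-associated gene, by 2 and 1 PETs. Srrm2, a splicing factor gene, was joined to Tceb2 by 1 PET in each library.

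Contacts of 17 gene lists were counted beside all promoter pairs, where 66.1% had fewer PETs in the knockout and PETs were 55.6% of control. A merged pair was counted under a list when a gene of the list lay at either anchor, so lists share pairs, and it holds the PETs of all intrachromosomal pairs of peaks merged into it. The median pair of a list had 1 PET in control and 0 in the knockout, as had the median of all pairs, except for histone genes at 1 and 1 and differentiation markers, which had only 2 pairs. The intervals of all lists with pairs overlapped that of all promoter pairs. Differences between lists were not tested.

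Genes for the protein-making machinery took part in many promoter contacts. Of 83 cytosolic ribosomal protein genes, 60 lay at a promoter contact, or 72.3%, against 22.7% of all 22238 genes counted. Their 130 pairs had 118 PETs in control and 45 in the knockout, 38.1% (26.4 to 54.2), with 91 pairs lower, 7 equal and 32 higher in number. The pair with the most PETs joined Rps29 to Arf6, a small GTPase gene, with 4 and 2. Genes for aminoacyl-tRNA synthetases, which load tRNAs with amino acids, had 43 and 15 PETs, 34.9% (18 to 64.1), over 43 pairs. Translation factor genes had 65 and 34 PETs, nucleolar and ribosome biogenesis genes 33 and 16, and chaperone genes 67 and 35.

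Mitochondrial and energy genes stood close to all promoter pairs. Mitochondrial ribosome genes had 162 and 92 PETs, 56.8% (43.5 to 73.8), of which 105 and 61 were those of Mrps18b with Abcf1. Oxidative phosphorylation genes, 45 of 92 of which had a contact, had 60 and 34 PETs, 56.7% (36.1 to 87.7). Their pair with the most PETs joined the anchor of Atp5b, a subunit of ATP synthase, to that of Cs with 1 and 2 PETs. Citric acid cycle genes had 15 and 8 PETs, glycolysis genes 11 and 5, and proteasome genes 41 and 22.

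Splicing factor genes had 107 and 43 PETs over 112 pairs, 40.2% (27.5 to 57.8). Zinc finger genes had the most PETs of any list, 691 and 326, or 47.2% (41.2 to 53.9), and in pairs of distinct sequence 156 and 79, or 50.6%. Of 13 zinc finger pairs tested by the exact binomial test, 2 were called lower and 2 higher, beside 28.0% of all 268 pairs tested. Replication-dependent histone genes, which lie in dense clusters, had the highest share of genes at a contact, 63 of 66, and kept 84 of 122 PETs, 68.9% (51.5 to 91.7). In histone pairs of distinct sequence there were 23 PETs in each library. The pair with the most PETs joined the cluster at Hist1h2ai to that at Hist1h1b with 23 and 8, and the pair of Hist1h2af with Hist1h2ad had 14 and 16.

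Genes of pluripotency had contacts of few PETs. Of 33 pluripotency genes, 13 lay at a promoter contact, or 39.4% against 22.7% of all genes, with 26 and 8 PETs over 22 pairs, 30.8% (12 to 70.0), of which 18 were lower and 4 higher. Promoters of Esrrb, a nuclear receptor of naive pluripotency, were joined to each other by 3 and 0 PETs, and the corepressor gene Trim28 was joined to Zbtb45 by 3 and 1. Promoters at Dppa5a were joined by 0 and 3 PETs. Differentiation markers had 1 PET in each library, that of the knockout joining the keratin genes Krt8 and Krt18, and none of 39 Hox genes had a contact in either library.

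**Figure D5:**
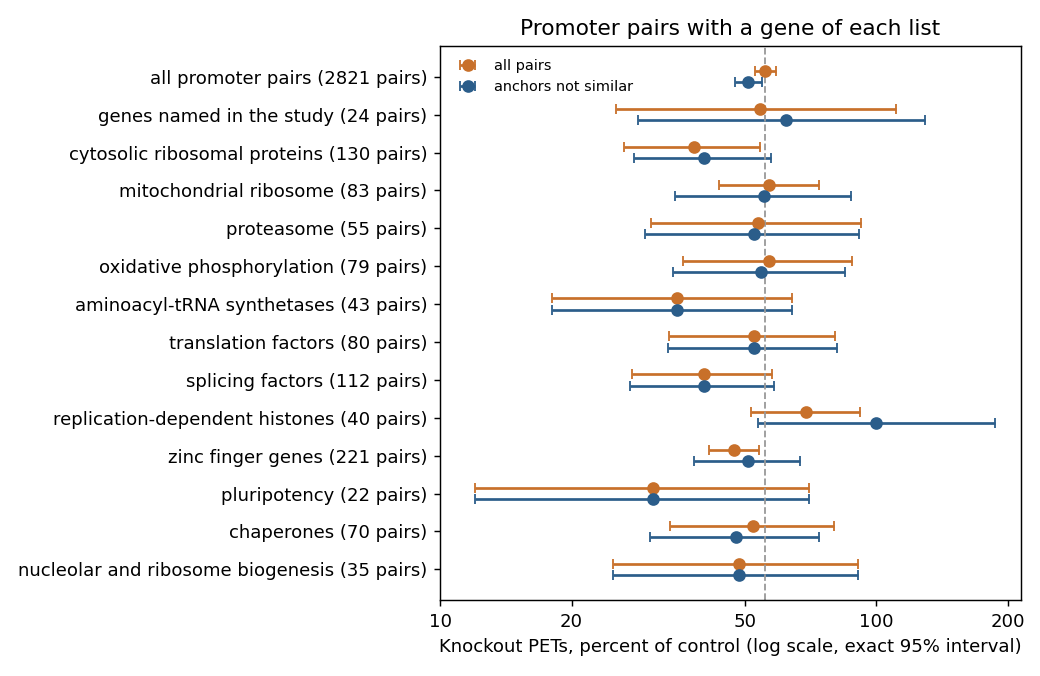
Knockout PETs as a percentage of control PETs (x axis, logarithmic, with exact 95% counting intervals as bars) of the promoter contacts of each gene list with at least 20 merged pairs, for all pairs (orange) and for those of distinct sequence (blue, anchors not similar), with a dashed line at the value of all promoter contacts. Over all pairs, the lists range from 30.8% for pluripotency genes to 68.9% for histone genes, and their intervals overlap that of all promoter contacts at 55.6%.

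Genes that the study discusses by name had contacts of very few PETs. Of 13 such genes, 9 had a promoter contact, with 24 PETs in control and 13 in the knockout over 24 merged pairs, of which 14 were lower, 4 equal and 6 higher. Because the study chose these genes on its own data, they are not independent evidence of a direction. Ubtf, a transcription factor of RNA polymerase I, was joined to Slc25a39, a mitochondrial carrier gene, and Rundc3a at 82.1 kb by 3 and 1 PETs. The anchor of Mmachc, a gene of vitamin B12 metabolism, was joined to that of Gpbp1l1 and Nasp at 86.8 kb by 2 and 0. The motif copy in Mmachc is shown above.

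Around Thap11, the gene that encodes Ronin, contacts were as sparse. The anchor that covers Thap11, Nutf2, Edc4 and Cenpt was joined to the promoters of Pskh1 and Nrn1l by 1 PET in control and 2 in the knockout and to those of Ctcf and Acd by 1 and 1. It was joined to Psmb10, Cdh1 and Fam65a by 1 PET each in control only. Gsk3a, which encodes a kinase of glycogen metabolism and Wnt signaling, was joined with Dedd2 and Zfp526 to Cic and Pafah1b3 by 1 and 1, and to Erf by 1 and 0. Max, the partner of Myc proteins, was joined to Fntb, a farnesyltransferase subunit, by 0 and 2. At 3 or fewer PETs a pair, no single contact of these genes differed between the libraries by more than counting error.

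Promoters linked by contacts formed assemblies, groups of anchors connected directly or through other anchors. The 2798 promoter anchors of the control library fell into 952 assemblies, of which 328, or 34.5%, had 3 or more anchors, 21 had 10 or more and the largest had 26. The 1617 anchors of the knockout library fell into 649, of which 168, or 25.9%, had 3 or more, 3 had 10 or more and the largest had 17. Anchors with 3 or more partners were 8.04% in control (225) and 3.83% in the knockout (62). Without pairs of similar sequence the shares of assemblies with 3 or more anchors were 34.1% and 25.1%. The control library held more contacts, 2026 against 1033, and the part of this number in the size of the assemblies was not tested.

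The promoters with the most partners in control cells included that of the translation factor gene Eif4a1. The anchor of Eif4a1, Senp3 and Mpdu1 on chromosome 11 had 7 partners in control and 1 in the knockout. It was 61.2 kb wide and was joined to them by 8 PETs in control and 1 in the knockout. The anchor of Bax, Ftl1 and Gys1 had 6 and 1 partners, that of the heat shock protein gene Hspa9 with Etf1 6 and 4, and that of Cd2bp2 and Zfp771 6 and 2. Partners were not seen in the knockout for the anchor of Otud5, Pqbp1 and Timm17b or for that of Bola1, which had 6 in control, nor for that of Klf16 and Rexo1, which had 5. Histone anchors kept most of their partners, with 6 and 6 partners around Hist1h1a and 6 and 4 around Hist1h2ad. These carried 39 and 37 PETs in control, and their strongest pairs were of similar sequence. The other anchors rested on few PETs, from 6 in control at Klf16 and Rexo1 to 9 at Hspa9. The part of library size in their lost partners was not tested. Their widths ran from 7.33 kb at Bola1 to 76.0 kb at Hspa9, and most covered promoters of several genes.

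Other promoters had more partners in the knockout. The anchor of Ifi30, Mast3 and Rab3a had 1 partner in control and 6 in the knockout, and that of Cfl1 and Mus81 2 and 5. The anchor of Atp5d, Cirbp and Stk11 had 3 and 5, that of Gpx4, a glutathione peroxidase gene, and Polr2e, a subunit gene of RNA Pol II, 2 and 4, and those of Ddx17 and of Map2k2 and Pias4 1 and 4 each. Apart from the 28 PETs of Cope with Ifi30 and Mast3, few PETs lay behind these partners, such as 5 in the knockout at Cfl1 and Mus81. The anchors with the most partners were picked as the highest of 1 library, so a lower number in the other library is a feature of the choice.

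By chromosome, the knockout had fewer promoter pairs on each of the 19 autosomes and on X, with the lowest value on X (37.2% of control) and the highest on chromosome 13 (76.1%). In PETs, chromosome 9 was the exception at 166%, with 108 of its 159 knockout PETs from Gm10722 and Gm10717. Chromosome 17 had the most control PETs, 517, of which 212 were those of Zfp942.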

How the data were processed

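RNA Pol II ChIA-PET was performed on control and Ronin knockout ESCs, with 2 experiments merged by the authors per condition. Per the study's methods, linker sequence was removed by the authors with cutadapt, both mates were aligned on their own to mm9 using Bowtie 1.1.1, and they kept unique alignments, collapsed duplicates, called peaks with MACS 1.4.2 and discarded intrachromosomal PETs under 4 kb. The deposited values used were raw counts of PETs per pair of peaks, a score that gives the signed distance of the peaks, and for each pair a p-value and its adjusted value. Counts per peak were not used.

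Promoters were TSSs of all transcripts of protein-coding genes in GENCODE vM1 (22380 genes). The contacts and gene lists were chosen with earlier results of these data known, the genes named by the study from its text. Ratios have exact conditional binomial 95% intervals. Classes and properties of contacts were compared by two-sided Fisher's exact tests, and merged pairs with at least 5 PETs by two-sided exact binomial tests, with Benjamini-Hochberg adjustment over 268 pairs. On simulated data with 200 of 268 pairs changed 4-fold, the latter recovered 121 and called 0 of the unchanged, so pairs with few PETs can change without a call. The simulation held no spread between replicates.

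Pairs were named when among the 10 with the most PETs in either library, called by the test, or the strongest of a gene list, and promoters when among the 10 with the most partners. Pairs of distinct sequence, those with motifs at both anchors, and further pairs of pluripotency, differentiation and histone genes were named after their values were seen. Anchor sequences came from NCBIM37 (mm9), and 32-base words were compared on both strands. The 59 alternatives, each a change of 1 setting for 1 result, covered PETs per pair, TSS definition, anchor width, distance, shared sequence, strongest pairs, scaling and motif. Python 3.11.15, scipy 1.17.1, pandas 2.3.3, numpy 2.4.6, networkx 3.6.1, pysam 0.24.0 and matplotlib 3.10.9 were used. A few pairs and promoters that meet these criteria are not reported here.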

Additional observations from a re-analysis of the deposited data

How the results depend on the processing

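No paired analysis was possible because each condition had 1 merged library. Of the alternative values, 66 kept their direction, side of the threshold and size. Others did not: 26 moved in size, 19 reversed in direction, 7 no longer passed the threshold and 1 newly passed it. The alternatives without pairs of similar sequence, without the mitochondrial pair and without Cope to Mast3, and the looser motif without similar pairs, were chosen after seeing the data. The depth limits single pairs, most of which had 1 PET, and the causes of the changes below were not tested.

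Knockout PETs were 58.9% of control with at least 2 PETs per pair, 51.7% without identical stretches, 50.5% without similar pairs and 48.1% without Cope to Mast3 too. Scaled to other intrachromosomal PETs, to interchromosomal PETs and to the study's PETs over 5 kb they were 115%, 137% and 69.4%. Pairs were 45.1% with at least 2 PETs. The odds ratio against other intrachromosomal PETs was 1.03 with at least 2 PETs (Fisher's exact test, p = 0.409), 1.05 without similar promoter pairs and 0.998 without Cope to Mast3 too, but 1.38 without identical stretches and 1.36 without similar pairs in all classes, both past the threshold. The share found again was 36.6% with at least 2 PETs, 9.23% without identical stretches, 9.25% for anchors under 30 kb, 9.06% without similar pairs, 9.02% without Cope to Mast3 too and 15.7% with anchors extended by 5 kb.

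Against the 2 lower and 8 higher pairs, an equal share gave 10 and 3, the interchromosomal share 1 and 15 and no minimum of PETs 1 and 4. The higher pairs were 5 with the study's PETs as the share and 4 without identical stretches. Without similar pairs, 0 were lower (exact binomial test, also 0 at an unadjusted p under 0.05) and 3 higher.

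With each pair counted once, the odds ratios were 1.02 for the motif, 1.37 for an identical stretch, 1.03 for a gene in common, 1.03 for distance, 1.06 for neighboring promoters and 1.01 for bidirectional promoters, none past the threshold. Without identical stretches, the motif gave 1.05 and a gene in common 1.03. Without the 2 strongest pairs, an identical stretch gave 1.14, distance 1.05 and bidirectional promoters 0.976, none past the threshold. Without similar pairs, the motif gave 1.03, an identical stretch 0.567, a gene in common 1.01, distance 0.877 and bidirectional promoters 1.26. Without Cope to Mast3 too these were 1.09, 0.596, 1.07, 0.972 and 1.09, and neighboring promoters 1.01. The looser motif consensus gave 1.25, and the motif anywhere in the anchor 0.812.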
